A study of Homo sapiens with 4 samples.

Results

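Of the RNA that ADAR was crosslinked to in K562 cells, the part described here came from the genes of 9 erythroid transcription regulators: CBFA2T3, ZFPM1, GATA1, TAL1, KLF1, LMO2, NFE2, GFI1B and LDB1. A cluster, which is a stretch of RNA called from the reads of an immunoprecipitated library, was counted for a gene when its midpoint lay in the RefSeq span of that gene on build GRCh38 and on the gene's strand. The 9 genes held 599 of the 534161 clusters of replicate 1, 243 of the 155848 clusters of replicate 2, and 3 of the 1717 peaks of the deposited list that combines the replicates, called the reproducible list here. The set was drawn up with results of these data known: GSE1, CBFA2T3 and ZFPM1 were chosen by their number of enriched clusters in replicate 1 and their shared place on the long arm of chromosome 16. Their counts in replicate 1 are therefore a description. GSE1 was not among the 9 and is given beside them.

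The study used enhanced crosslinking and immunoprecipitation (eCLIP), in which ultraviolet light joins protein to RNA, the protein is pulled down with an antibody, and the bound RNA is sequenced beside an input that was not pulled down. Untreated K562 cells gave 2 immunoprecipitated (IP) libraries, pulled down with anti-ADAR1, and 2 inputs with no antibody, all numbered 1 or 2. K562 is a single human leukaemia line that carries an erythroid programme, and the labels call the cells lymphoblasts. Separate cultures are not mentioned in the labels, and the spread between replicates may be technical.

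ADAR is an enzyme that deaminates adenosines in paired RNA, and inverted repeats inside introns are a common source of such pairing in human cells. The regulators described here act in the making of red cells and platelets. GATA1 and the TAL1 complex, in which LMO2 and LDB1 join DNA-binding proteins into one assembly, occupy the same enhancers, while ZFPM1 and CBFA2T3 are cofactors that these proteins bring to DNA. KLF1 and NFE2 drive globin genes, and GFI1B represses genes through a demethylase corepressor.

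The authors gave each cluster a pair of values. The first is the log2 of IP over input reads after scaling to library depth, called the log2 fold. The second is the −log10 of its p-value. A cluster with at least 3 in both was called enriched. Over all clusters this call was made for 1.39% in replicate 1 and 12.8% in replicate 2, and the median log2 fold was 0.07 in replicate 1 and 1.85 in replicate 2. The ratio of IP to input depth was 3.33 in replicate 1 and 0.553 in replicate 2. No enriched cluster with recovered reads had fewer than 37 IP reads in replicate 1 or fewer than 9 in replicate 2. Every comparison of the replicates below carries this difference in depth, and its part in the results was not tested. No cluster of the 10 genes lay on the opposite strand in any of the 3 lists.

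Start regions are shown first for the genes the results turn on, because those of CBFA2T3 and ZFPM1 were rich in G and C. The sequences run from 250 bases before the RefSeq start site to 50 after it, 5′ to 3′ on the gene's strand (RefSeq, GRCh38.p14). In the first 3, capitals mark GGGCGG on either strand (CCGCCC on the other), a motif known as the GC box. In the last 2, capitals mark GATAA on either strand (TTATC on the other), the core that GATA factors recognise. They are CBFA2T3 (chr16:88941301-88941600, minus strand), ZFPM1 (chr16:88453030-88453329, plus strand), GSE1 (chr16:85613072-85613371, plus strand), TAL1 (chr1:47232286-47232585, minus strand) and KLF1 (chr19:12887152-12887451, minus strand).
CBFA2T3: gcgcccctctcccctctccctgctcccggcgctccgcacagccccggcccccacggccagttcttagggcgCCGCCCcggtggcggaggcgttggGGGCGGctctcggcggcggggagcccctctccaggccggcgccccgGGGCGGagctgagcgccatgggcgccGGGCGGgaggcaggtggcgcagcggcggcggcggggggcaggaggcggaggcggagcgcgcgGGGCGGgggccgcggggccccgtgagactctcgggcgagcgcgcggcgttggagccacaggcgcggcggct
ZFPM1: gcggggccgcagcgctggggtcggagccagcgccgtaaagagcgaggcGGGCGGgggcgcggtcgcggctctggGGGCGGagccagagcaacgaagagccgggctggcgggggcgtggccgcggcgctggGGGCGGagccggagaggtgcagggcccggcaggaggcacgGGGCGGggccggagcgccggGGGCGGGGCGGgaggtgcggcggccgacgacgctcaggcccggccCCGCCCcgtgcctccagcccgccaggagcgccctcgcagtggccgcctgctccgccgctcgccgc
GSE1: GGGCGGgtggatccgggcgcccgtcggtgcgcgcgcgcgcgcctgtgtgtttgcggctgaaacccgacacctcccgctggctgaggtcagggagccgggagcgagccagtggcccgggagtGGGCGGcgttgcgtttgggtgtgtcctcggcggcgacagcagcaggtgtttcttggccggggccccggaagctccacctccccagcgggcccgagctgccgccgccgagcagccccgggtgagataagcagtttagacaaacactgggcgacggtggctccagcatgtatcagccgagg
TAL1: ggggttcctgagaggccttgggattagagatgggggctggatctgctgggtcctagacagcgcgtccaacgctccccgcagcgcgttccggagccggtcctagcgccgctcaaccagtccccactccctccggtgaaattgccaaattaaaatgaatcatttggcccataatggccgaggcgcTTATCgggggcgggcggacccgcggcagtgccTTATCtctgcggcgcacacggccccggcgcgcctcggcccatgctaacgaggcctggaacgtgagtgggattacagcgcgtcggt
KLF1: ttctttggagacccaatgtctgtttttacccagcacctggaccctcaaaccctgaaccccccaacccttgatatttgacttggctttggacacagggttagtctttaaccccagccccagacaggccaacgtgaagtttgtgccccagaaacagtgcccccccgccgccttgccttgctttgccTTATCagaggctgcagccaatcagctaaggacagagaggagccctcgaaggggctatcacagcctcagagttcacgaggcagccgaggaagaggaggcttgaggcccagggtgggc

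CBFA2T3 held 5 GGGCGG matches, ZFPM1 held 7, of which 2 overlap by 1 base, and GSE1 held 2. The printed window of TAL1 also held 2, not marked, that of KLF1 held 0, and that of LDB1, not printed, held 3. Of 35116 promoter windows of 300 bases, 45.0% held at least 1. Both CBFA2T3 and ZFPM1 were 83% G and C, against a median of 62.7% over 15843 protein-coding genes (quartiles 54% and 70.3%), and GSE1 was 71%. Over 2619 protein-coding genes with at least 50 clusters in replicate 1, the median was 67% (quartiles 60% and 73%). An entry was held for 7 of the 9 members, and the other 5 ranged from 42.3% for 1 of the GFI1B starts to 67.7% for GATA1. TAL1 held 2 GATAA matches, and KLF1 and GSE1 held 1 each, that of GSE1 not marked. Neither CBFA2T3 nor ZFPM1 held any, while 22.7% of windows did. A match describes the letters of the window and is not a binding site.

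CBFA2T3, also called ETO2 or MTG16, is a corepressor of the TAL1 complex. Its span on chromosome 16 runs from 88874858 to 88977207 on the minus strand. In replicate 1 it held 236 clusters, of which 79 were enriched (33.5%, against 1.39% of all clusters). Their log2 fold ran from −0.65 to 4.98 with a median of 2.66. In replicate 2 it held 104 clusters, of which 2 were enriched (1.92%, against 12.8% of all clusters), and the log2 fold ran from −1.07 to 3.31 with a median of 1.44. The gene thus lay far above the typical cluster in replicate 1 and below it in replicate 2. By number of enriched clusters it was the 2nd of 30257 genes in replicate 1 and tied at rank 2419 in replicate 2.

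ZFPM1, the GATA1 cofactor known as FOG1, spans 88451769 to 88537031 on the plus strand of the same chromosome. It held 211 clusters in replicate 1, of which 70 were enriched (33.2%), and 90 clusters in replicate 2, of which 0 were. Of those 90, 84 had a log2 fold above 0, 2 reached a log2 fold of 3, and 1 reached a −log10 p of 3. The log2 fold in replicate 1 ran from 0.10 to 4.88 with a median of 2.73, so no cluster lay below the input level. In replicate 2 it ran from −0.47 to 3.18 with a median of 1.44, the same as that of CBFA2T3.

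**Figure D1:**
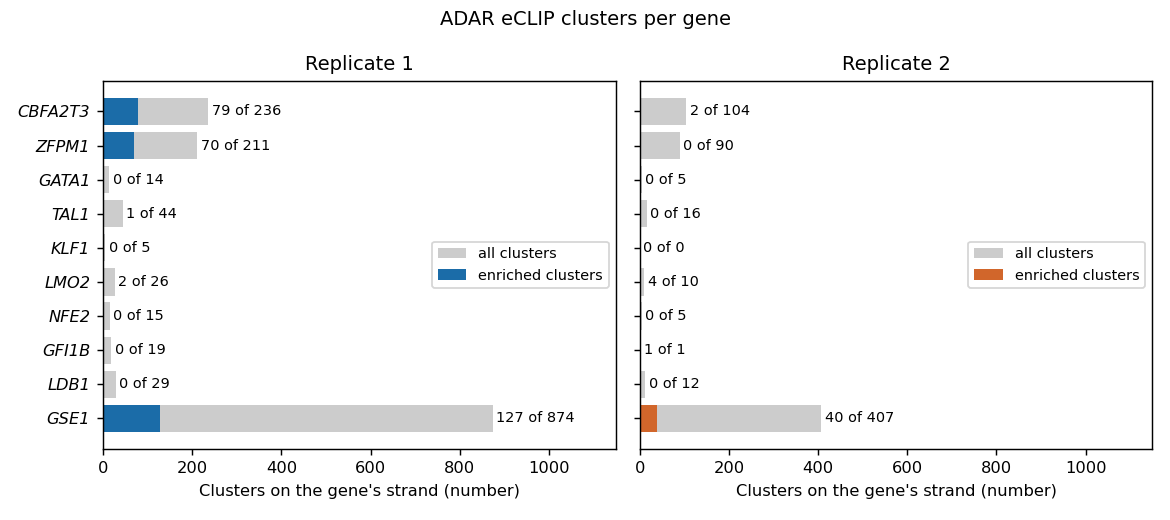
Number of clusters on the strand of each gene (grey bars) and of enriched clusters (coloured bars) in replicates 1 and 2, with both numbers printed beside each bar. CBFA2T3 had 79 enriched clusters of 236 in replicate 1 and 2 of 104 in replicate 2, and ZFPM1 had 70 of 211 and 0 of 90.

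The enriched clusters of replicate 1 lay in 9 of 10 parts of CBFA2T3 and in the first 7 of ZFPM1. With each span divided into 10 equal parts from its 5′ end, the median log2 fold of CBFA2T3 in replicate 1 lay between 1.89 and 2.86 in every part, and that of ZFPM1 lay between 2.44 and 2.90 in the first 7 parts. In replicate 2 the medians of the same parts lay between 1.05 and 2.02 for CBFA2T3 and between 0.85 and 1.72 for ZFPM1. Each median of replicate 2 was below that of replicate 1 in these parts. In part 8 of ZFPM1 the medians were 1.83 and 1.35, and in part 9 the order was reversed, at 1.44 from 1 cluster and 2.18 from 3 clusters. Enriched clusters of replicate 1 ran from 1.72 to 85.5 kb from the 5′ end in CBFA2T3 and from 2.11 to 59.6 kb in ZFPM1. Touching clusters merged, they made 69 sites in CBFA2T3 and 61 in ZFPM1. The last part of ZFPM1 held 0 clusters in replicate 1 and 6 in replicate 2.

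**Figure D2:**
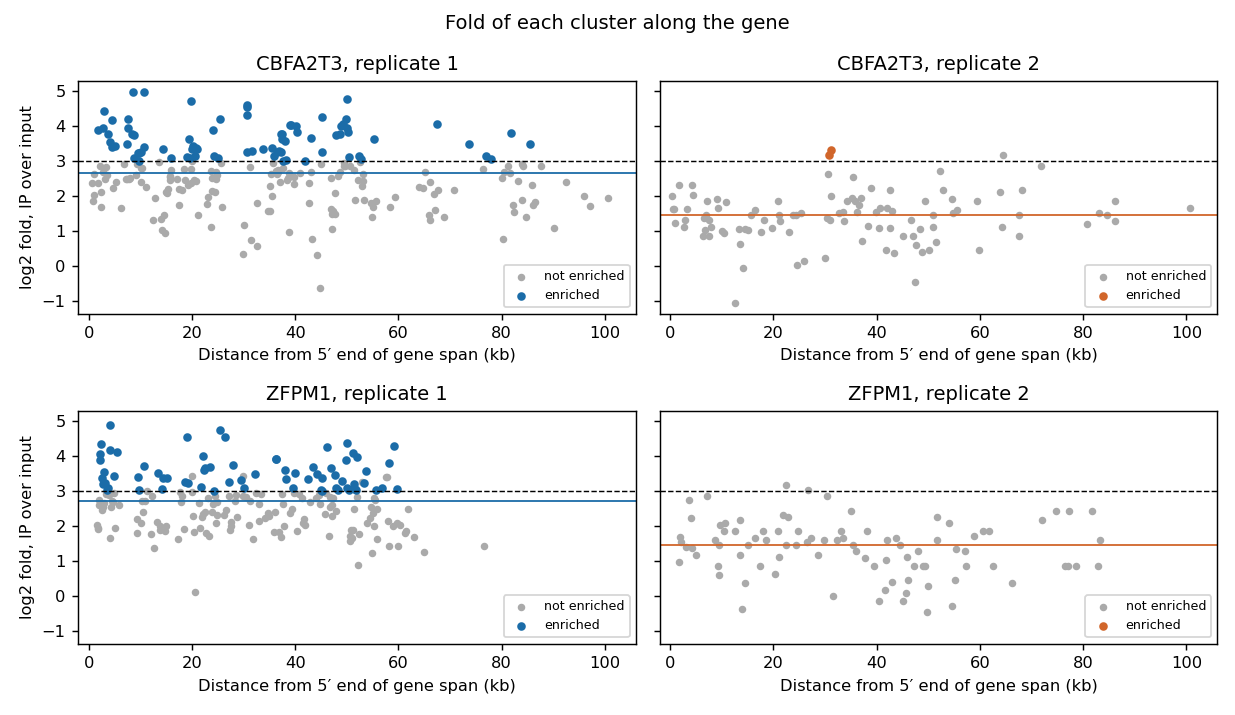
Log2 fold of each cluster against its distance in kb from the 5′ end of the gene span, for CBFA2T3 (top) and ZFPM1 (bottom) in replicate 1 (left) and replicate 2 (right). Coloured points are enriched, the dashed line is a log2 fold of 3 and the solid line is the median, 2.66 and 1.44 for CBFA2T3 and 2.73 and 1.44 for ZFPM1.

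The highest cluster of CBFA2T3 in replicate 1 lay at 88966557 to 88966611, with 105 IP reads over 1 input read and a log2 fold of 4.98. That of ZFPM1 lay at 88455855 to 88455914, with 98 IP reads over 1 input read and a log2 fold of 4.88. Folds at 1 input read have little precision. Of the 78 enriched clusters of CBFA2T3 whose reads could be recovered, 11 had 1 input read, 52 had 2 to 4, and 15 had 5 or more. For ZFPM1 these numbers were 18, 45 and 7 of 70. Over all enriched clusters of replicate 1 the share with 5 or more input reads was 9.35%, against 19.2% for CBFA2T3 and 10% for ZFPM1.

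Most clusters of CBFA2T3 in replicate 2 were deep enough for a call. At a log2 fold between 3 and 4, the smallest total of IP and input reads that allows an enriched call was 12 in replicate 2, and 80 of the 99 CBFA2T3 clusters with recovered reads had a total that allowed one. Their median log2 fold was 1.44, and 2 of them were enriched. In ZFPM1, 34 of 83 recovered clusters had such a total, with a median log2 fold of 1.13 and a highest of 2.73. The other ZFPM1 clusters were too shallow for a log2 fold near 3 to be called. In replicate 1 the smallest such total was 38 reads, and 223 of 234 recovered clusters of CBFA2T3 and 196 of 211 of ZFPM1 had one. Some larger totals were not counted, because no pair of whole numbers gives them a log2 fold between 3 and 4. The 223 thus held 76 enriched clusters, against 78 among all recovered ones of CBFA2T3.

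**Figure D3:**
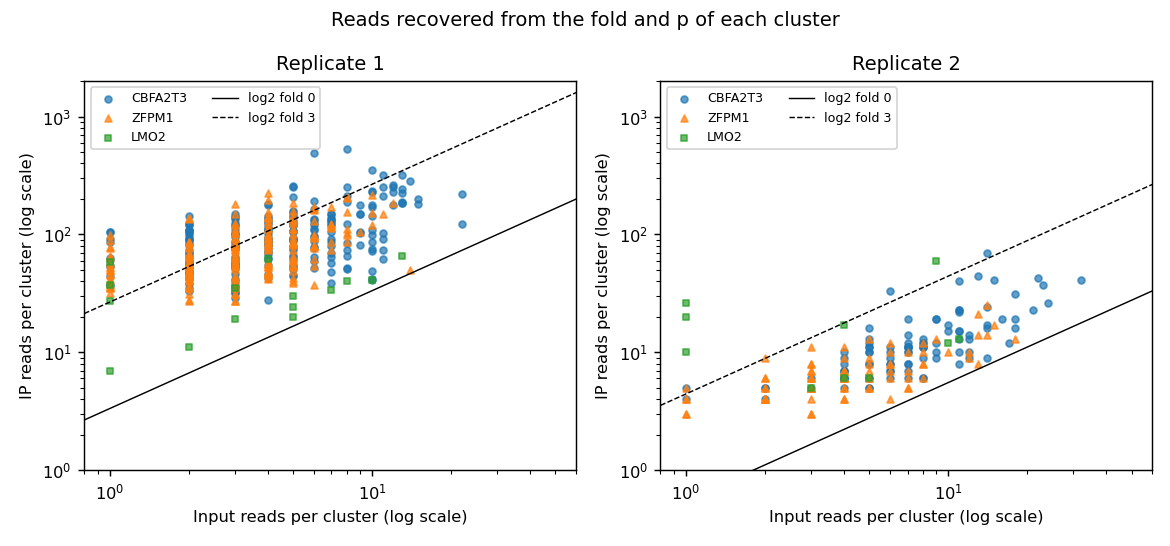
IP reads against input reads of each cluster of CBFA2T3 (circles), ZFPM1 (triangles) and LMO2 (squares), on log axes, as recovered from the deposited fold and p, in replicates 1 and 2. The solid line is a log2 fold of 0 and the dashed line a log2 fold of 3, and most CBFA2T3 and ZFPM1 clusters lie near the dashed line in replicate 1 and between the lines in replicate 2.

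Summed over the recovered clusters of CBFA2T3, there were 25214 IP and 1262 input reads in replicate 1, a pooled log2 fold of 2.59 (95% counting interval 2.50 to 2.67). In replicate 2 there were 1363 and 859, a pooled log2 fold of 1.52 (1.40 to 1.65). For ZFPM1 the pooled log2 fold was 2.65 (2.55 to 2.75) from 16829 IP and 806 input reads in replicate 1. It was 1.34 (1.16 to 1.52) from 610 and 436 reads in replicate 2. The intervals of the replicates did not overlap for either gene, but the genes were chosen by their clusters in replicate 1, so this is a description. The intervals cover counting error only, are exact binomial (Clopper-Pearson) intervals, and count a read again where it spans neighbouring clusters. Over the recovered clusters of all genes the pooled log2 fold was 1.33 in replicate 1 and 2.14 in replicate 2. These cover 168814 of 534161 clusters in replicate 1 and 136531 of 155848 in replicate 2, since clusters with a −log10 p listed as 0 drop out. For CBFA2T3 234 of 236 and 99 of 104 clusters were covered, so the pooled values of all genes are no like reference for it.

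Where the replicates covered the same sequence of CBFA2T3 or ZFPM1, the fold was mostly lower in replicate 2. Clusters were paired across the replicates by mutual best overlap. Of 75 pairs in CBFA2T3, 67 were higher in replicate 1, with a median difference of −1.15 (replicate 2 minus replicate 1, log2 scale). In ZFPM1, 49 of 54 pairs were higher in replicate 1, with a median difference of −1.40. Over all 87894 pairs, 19.3% were higher in replicate 1 and the median difference was 1.36. Pairs of a gene share libraries and are not independent, and no test was made.

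Overlap between the replicates was counted next. Of the 152 enriched clusters of the 9 genes in replicate 1, 51 (33.6%) were overlapped by any cluster of replicate 2 and 5 (3.29%) by an enriched one. Over all enriched clusters of replicate 1 these shares were 64.0% and 41.9%. Since 79 and 70 of the 152 lay in CBFA2T3 and ZFPM1, which were chosen by these clusters, and many touch each other, the shares are a description. The 24 replicate 2 clusters that lay on enriched CBFA2T3 clusters all had a log2 fold above 0, between 0.39 and 3.16, and 1 was enriched. Of the 21 on enriched ZFPM1 clusters, 19 were above 0 and 0 were enriched.

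The 3 reproducible peaks of the 9 genes all lay in CBFA2T3, side by side from 88946467 to 88946537, and form 1 site of touching peaks. Their log2 folds in the reproducible list were 3.73, 3.87 and 3.80. Replicate 1 had clusters with the same ends there, at log2 folds of 4.31, 4.61 and 4.53, the first from 527 IP and 8 input reads. Replicate 2 had 1 cluster across all 3, from 88946487 to 88946548, with 69 IP and 14 input reads and a log2 fold of 3.16. The other enriched CBFA2T3 cluster of replicate 2 lay at 88946033 to 88946089, with 33 IP and 6 input reads and a log2 fold of 3.31. The site is about 31 kb from the 5′ end of the span and 5′ of the start site printed above, which lies 35.9 kb into the span. Which transcript the reads came from was not tested. The span of LOC100129697, a noncoding RNA gene of the opposite strand, also covers it. LOC107984871, a noncoding RNA gene of the same strand inside CBFA2T3, covers 18 of its 236 clusters and 11 of its 79 enriched ones in replicate 1, and LOC107984890 on the strand of ZFPM1 covers 21 of 211 and 5 of 70. Reads of such a pair of genes cannot be told apart.

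Of the 79 enriched CBFA2T3 clusters of replicate 1, 43 lay before the printed start site, as did 120 of all its 236 clusters. The window itself was overlapped by 2 clusters of replicate 1, 1 of them enriched at 88941154 to 88941424 (320 IP and 11 input reads, log2 fold 3.13), and by 1 of replicate 2 with a log2 fold of 1.85 from 22 and 11 reads. In the first kb after the start site 3 of 7 clusters of CBFA2T3 and 4 of 9 of ZFPM1 were enriched in replicate 1, with highest log2 folds of 3.27 and 4.35. In replicate 2 these stretches held 2 and 3 clusters, none of them enriched, with highest log2 folds of 1.73 and 1.69.

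Among the DNA-binding members, GATA1, the master factor of the erythroid lineage (chromosome X, 48786590 to 48794311, plus strand), had 14 clusters in replicate 1 and 5 in replicate 2, with none enriched. Its log2 fold ran from −1.58 to 3.17 with a median of 0.75 in replicate 1 and from −0.02 to 2.94 with a median of 1.53 in replicate 2. The highest cluster of each replicate lay near the 3′ end of the gene, at 48794221 to 48794285 in replicate 1 (30 IP and 1 input reads) and at 48793913 to 48794012 in replicate 2 (17 and 4 reads).

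TAL1, the basic helix-loop-helix protein at the centre of the complex (chromosome 1, 47216290 to 47232335, minus strand), had 1 enriched cluster of 44 in replicate 1 and 0 of 16 in replicate 2. That cluster, at 47231096 to 47231168, had 44 IP reads over 1 input read and a log2 fold of 3.73, and no cluster of replicate 2 overlapped it. The median log2 fold was 1.10 in replicate 1 and 0.85 in replicate 2. KLF1, which activates the adult beta-globin gene (chromosome 19, 12884422 to 12887201, minus strand), had 5 clusters in replicate 1, between 0.03 and 1.85, and 0 in replicate 2.

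NFE2, the haematopoietic subunit of the NF-E2 factor (chromosome 12, 54292111 to 54301015), had 15 clusters in replicate 1 and 5 in replicate 2, none enriched, with highest log2 folds of 1.30 and 0.59. GFI1B, a zinc finger repressor (chromosome 9, 132945531 to 132993434, plus strand), had 19 clusters in replicate 1 with none enriched and a highest log2 fold of 1.97. Its single cluster of replicate 2, at 132981489 to 132981604, was enriched by a narrow margin (10 IP and 2 input reads, log2 fold 3.18, −log10 p 3.00), and the cluster of replicate 1 that overlaps it had a log2 fold of −1.73.

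The bridging proteins of the complex differed from each other. LDB1, which holds enhancer and promoter together (chromosome 10, 102102088 to 102121442, minus strand), had 29 clusters in replicate 1 and 12 in replicate 2, none enriched, with medians of 0.48 and 0.46. LMO2, the adaptor between LDB1 and the DNA-binding members (chromosome 11, 33858576 to 33892076), had 2 enriched clusters of 26 in replicate 1 and 4 of 10 in replicate 2. Its median log2 fold was 0.57 in replicate 1 and 2.27 in replicate 2.

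LMO2 had a place that was enriched in both replicates. In replicate 1 it was a cluster at 33880143 to 33880327 with 58 IP reads over 1 input read and a log2 fold of 4.12. In replicate 2 it held 3 touching clusters from 33880177 to 33880309, with 20, 26 and 10 IP reads over 1 input read each and log2 folds of 5.18, 5.55 and 4.18. No reproducible peak covers it. Over the whole series 2145 pairs of clusters were enriched in both replicates, and 43.8% of them were overlapped by a reproducible peak. The other enriched cluster of replicate 1, at 33871976 to 33872038 (37 IP reads over 1 input read, log2 fold 3.48), was met in replicate 2 by one at 2.94 from 17 and 4 reads, just under the threshold. The remaining one of replicate 2, at 33866525 to 33866629 (60 IP and 9 input reads, log2 fold 3.59), was met in replicate 1 by one at 0.59 from 40 and 8 reads.

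In pooled reads LMO2 went the opposite way to CBFA2T3 and ZFPM1. Its direction was that of all recovered clusters, 1.33 in replicate 1 and 2.14 in replicate 2, which leave out most clusters of replicate 1. The pooled log2 fold of LMO2 was 1.15 (0.79 to 1.54) in replicate 1, from 510 IP and 69 input reads. In replicate 2 it was 2.69 (2.23 to 3.18), from 175 and 49. Its 4 enriched clusters held 60, 26, 20 and 10 of these 175 IP reads. The intervals did not overlap, while its 7 paired clusters differed by a median of 0.05. In replicate 1 the −log10 p of 10 of its 26 clusters was listed as 0, so that their reads could not be recovered and the pooled fold leaves them out. Of the members with pooled folds in both replicates, GATA1, TAL1, NFE2, GFI1B and LDB1 had intervals that overlapped between the replicates. In replicate 1 the pooled log2 fold was 1.21 (1.01 to 1.41) for TAL1, 1.17 (0.21 to 2.29) for GFI1B, 0.90 (0.56 to 1.24) for GATA1, 0.80 (0.48 to 1.13) for NFE2, 0.72 (0.54 to 0.91) for LDB1 and 0.61 (−0.03 to 1.31) for KLF1. Most of these intervals overlap, and that of GFI1B leaves out 13 of its 19 clusters, whose −log10 p was listed as 0.

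**Figure D4:**
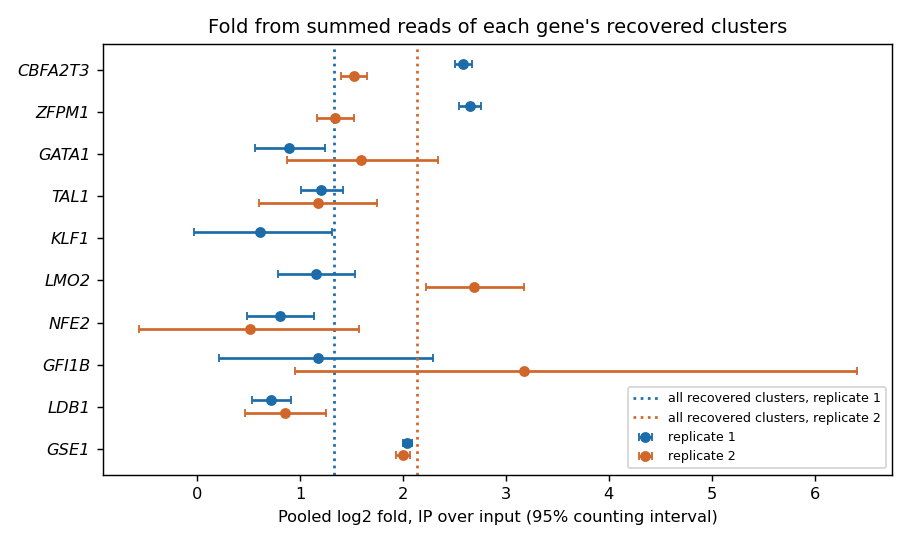
Pooled log2 fold of IP over input from the summed recovered reads of each gene, with exact 95% counting intervals as bars, in replicate 1 (blue) and replicate 2 (orange). Dotted lines give the same over all recovered clusters, 1.33 and 2.14, which leave out most clusters of replicate 1. CBFA2T3 and ZFPM1 lie higher in replicate 1, LMO2 lies higher in replicate 2, and GSE1 lies at 2.04 and 2.00.

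At each of the other thresholds run, the 9 genes had more enriched clusters in replicate 1 than in replicate 2. CBFA2T3 and ZFPM1 were chosen by their enriched clusters in replicate 1, so this order is a description. At the thresholds of 3, the other 7 members, given next, did not share it. With a log2 fold of at least 2 they had 320 enriched clusters in replicate 1 and 15 in replicate 2 (all clusters 2.45% and 16.9%), and with at least 4 they had 32 and 3 (all clusters 0.468% and 7.09%). With a −log10 p of at least 5 they had 120 and 5 (all clusters 0.885% and 8.21%), and with no minimum for p 159 and 11 (all clusters 1.92% and 19.7%).

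Without CBFA2T3 and ZFPM1, the other 7 members had 3 enriched clusters of 152 in replicate 1 (1.97%, beside 1.39% of all clusters) and 5 of 49 in replicate 2 (10.2%, beside 12.8%). Both shares were near the background. Of the 3, 2 lay in LMO2 and 1 in TAL1, and of the 5, 4 lay in LMO2 and 1 in GFI1B. Their paired clusters differed by a median of −0.04, with 19 of 37 higher in replicate 1. Among member clusters just at the thresholds, the lowest enriched log2 fold was 3.00 in replicate 1 and 3.16 in replicate 2, while the highest log2 fold below 3 with a sufficient p was 2.99 and 2.94.

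GSE1, a coiled-coil protein known from histone deacetylase corepressor complexes, lies on the same chromosome arm from 85169512 to 85676200 on the plus strand. It had 127 enriched clusters of 874 in replicate 1 (14.5%) and 40 of 407 in replicate 2 (9.83%), with median log2 folds of 2.03 and 1.27. Its pooled log2 fold was 2.04 (2.00 to 2.09) in replicate 1 and 2.00 (1.93 to 2.07) in replicate 2, and these intervals overlapped. Of its 199 paired clusters 151 (75.9%) were higher in replicate 1. Of its 127 enriched clusters of replicate 1, 44 (34.6%) were overlapped by any cluster of replicate 2 and 6 by an enriched one. In replicate 1, 100 of the 127 lay in the last 2 of 10 equal parts of the span, which hold the printed start site and what follows it. The 40 of replicate 2 were spread over all 10 parts, 10 of them in these last 2.

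The highest cluster of GSE1 in replicate 2 was at 85257698 to 85257739, with 151 IP reads over 1 input read and a log2 fold of 8.09. GSE1 held 6 reproducible peaks, with log2 folds from 3.02 to 5.14, the highest at 85660703 to 85660756. At that peak replicate 1 had 56 IP reads over 1 input read and replicate 2 had 82 over 2 in a cluster across it. Unlike the site of CBFA2T3, 3 of the 6 peaks lay on replicate 1 clusters below a log2 fold of 3, between 2.02 and 2.32.

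On the stretch of chromosome 16 from GSE1 to CBFA2T3, 29 protein-coding genes with an assigned strand were counted, and genes with none were left out. In replicate 1, 313 of their 2219 clusters were enriched (14.1%). Without GSE1, CBFA2T3 and ZFPM1 it was 37 of 898 (4.12%), beside 1.60% in the other protein-coding genes of the chromosome. In replicate 2 the share was 8.29% for the stretch, 11.2% without these 3 genes, and 13.1% on the rest of the chromosome. PIEZO1, which encodes a mechanically gated ion channel of red cells, followed with 27 of 186 clusters enriched in replicate 1 and 10 of 67 in replicate 2. It thus held 27 of the 37 enriched clusters of replicate 1 outside the 3 genes, so the share of 4.12% rests mostly on PIEZO1. MAP1LC3B, an autophagy protein, had 4 of 34 and 0 of 16, and CDT1, a replication licensing factor, had 3 of 15 and 0 of 4. FBXO31 had 1 and 5 enriched clusters, and SLC7A5, an amino acid transporter, had 1 and 0. Of the 29 genes, 25 had clusters in replicate 1 and 9 had an enriched one, beside 12216 and 2029 of 17542 protein-coding genes.

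**Figure D5:**
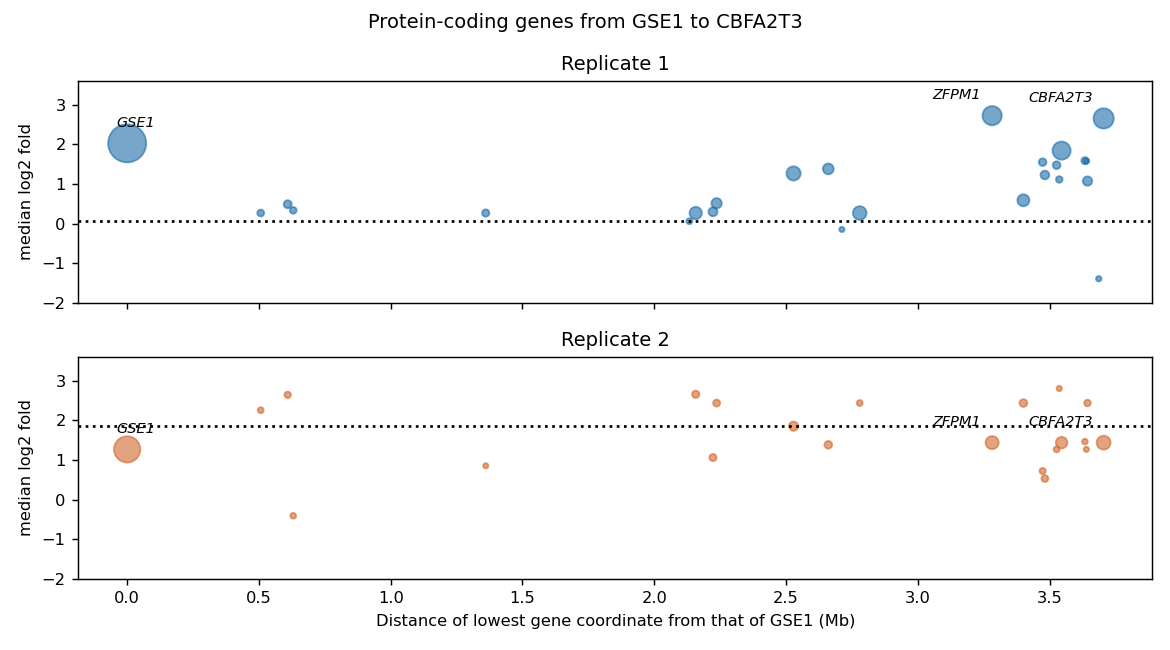
Median log2 fold of the clusters of each protein-coding gene between GSE1 and CBFA2T3 on chromosome 16, against the distance of its lowest coordinate from that of GSE1 in Mb. Larger points hold more clusters, and the dotted line is the median of all clusters, 0.07 in replicate 1 (top) and 1.85 in replicate 2 (bottom). ZFPM1, CBFA2T3 and GSE1 lie at 2.73, 2.66 and 2.03 in replicate 1 and at 1.44, 1.44 and 1.27 in replicate 2.

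The genes whose counts were most like those of CBFA2T3 and ZFPM1, by enriched clusters in replicate 1 minus those in replicate 2, were GSE1 (127 and 40), MIR3667HG on chromosome 22 (70 and 1), LINC01667 on chromosome 21 (55 and 3), MIR17HG on chromosome 13 (52 and 0) and EGFL7 on chromosome 9 (50 and 0), which tied with MAD1L1 (54 and 4). This order rests on 2 replicates. Among 1985 protein-coding genes with at least 50 clusters in replicate 1 and 20 in replicate 2, ZFPM1 was 7th and CBFA2T3 8th by median log2 fold in replicate 1, and both were tied at rank 1503 in replicate 2. CTBP1, a corepressor that binds ZFPM1, was 4th in replicate 1, with medians of 3.02 and 1.44, and was picked after its values were seen. In the 30 protein-coding genes with at least 10 more enriched clusters in replicate 1 than in replicate 2, the median G and C content of the promoter window was 70.8%. It was 66.5% in the 236 genes with at least 10 more in replicate 2, and 67% in 2619 genes with at least 50 clusters in replicate 1. The part of base composition in the folds was not tested.

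Partners of the members in the same complexes did not follow CBFA2T3 and ZFPM1. Of 28 partner genes with a known strand, 18 had an enriched cluster in replicate 1, 19 in replicate 2, 15 in both, and 6 a reproducible peak. Of 17542 protein-coding genes, 2029 had an enriched cluster in replicate 1 and 4228 in replicate 2. Of the clusters of the partner genes 2.37% were enriched in replicate 1 and 14.9% in replicate 2, beside 1.39% and 12.8% of all clusters. RCOR1, the CoREST scaffold that GFI1B recruits, had 10 reproducible peaks, with 10 enriched clusters of 198 in replicate 1 and 35 of 130 in replicate 2. ZFPM2, the paralog of ZFPM1 known as FOG2, had 4, RBBP4, a histone-binding subunit, had 4, KDM1A, the demethylase partner of CoREST, had 3, and RUNX1 had 3. The paralog of CBFA2T3, CBFA2T2, had 5 enriched clusters of 177 and 12 of 105 and no reproducible peak. GATA2, which precedes GATA1 in development, had 12 of 30 and 8 of 13 and 2 reproducible peaks. Both were picked after their values were seen.

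Other haematopoietic transcription factors had no reproducible peak. Of 21 genes with a known strand, 3 had an enriched cluster in replicate 1 and 9 in replicate 2, beside 2029 and 4228 of 17542 protein-coding genes. Of the clusters of these 21 genes 1.70% and 8.98% were enriched, beside 1.39% and 12.8% of all clusters. ZBTB7A, a repressor of fetal globin, had 15 of 40 in replicate 1 and 1 of 34 in replicate 2, with medians of 2.78 and 1.56. NR2C2 had 2 and 6 enriched clusters, STAT5B had 1 and 7, NR2C1 had 0 and 6, and ELF1 had 0 and 5. Globin and haem synthesis genes that these regulators control were counted where a strand was known, which left out AHSP, HBA1, HBA2 and HBB. Among the 17 counted, CPOX, an enzyme of haem synthesis, had 3 enriched clusters in each replicate and 1 reproducible peak. SLC25A37, the mitochondrial iron importer, had 1 enriched cluster in replicate 2. The other 15 had none in either, and 0.958% and 3.85% of the list's clusters were enriched, beside 1.39% and 12.8% of all clusters.

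All 7 markers of K562 and erythroid cells had clusters in both replicates, with 305 and 95 in all. Of 4 lymphoid markers 3 had clusters, 67 in replicate 1 and 1 in replicate 2, of which PTPRC held 57. The 3 hepatocyte markers counted had none. CD3E and MS4A1 of the lymphoid list and APOA1, APOB and TTR of the hepatocyte list had no known strand and were left out.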

How the data were processed

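Peak lists of ADAR eCLIP in K562 cells were used, 1 per replicate and 1 that combines them. The tools named, per the submitters' processing notes, include cutadapt 1.9 and STAR 2.4.0i, with the builds hg19, GRCh38 and hg38. The peak caller and the rule for combining replicates are not given in the sources used here. Both the −log10 p-values of IP over input (limited to 400) and the log2 folds are the authors' deposited values, used to describe and filter clusters and not tested again.

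Coordinates, counted from 1, were read as GRCh38. Gene spans came from RefSeq (GRCh38.p14) and strands from its promoter table. For LMO2 and NFE2 the strand was that of at least 80% of at least 5 clusters. Exons were not assigned.

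Reads per cluster were recovered from both deposited values. The commonest log2 fold was taken as 3 IP reads over 1 input read, other folds were read as ratios of whole numbers relative to it (tolerance 1e-07), and the multiple was the one whose p matched within 0.005 (relative above 1). The p was an exact two-sided binomial one where an observed or expected count was under 5, and otherwise a chi-square one with continuity correction. This recovered 99.5% (replicate 1) and 99.0% (replicate 2) of the usable clusters of the 9 genes and GSE1. Clusters with a −log10 p listed as 0 (84 and 66) were not usable. On simulated pairs 992 of 995 and 982 of 982 were recovered, and 0 wrongly. These pairs were made with the same scale of 3 to 1 and the same p formula. They thus check the search for the reads only, and cannot check the scale or the formula. Library totals are not known.

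The members, gene lists and alternatives were chosen with earlier results of these data known. Named were all members and GSE1, up to 5 genes per list by reproducible peaks and then enriched clusters, the 5 with the largest excess in replicate 1, and the 5 leading neighbours between GSE1 and CBFA2T3. Alternatives changed thresholds, gene assignment, overlap and input minimums. Python 3.11.15, pandas 2.3.3 and scipy 1.17.1 were used.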

Additional observations from a re-analysis of the deposited data

How the results depend on the processing

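Counts of enriched clusters moved with the fold threshold. At a log2 fold of at least 2 the 9 genes had 320 in replicate 1 and 15 in replicate 2, CBFA2T3 had 172 and ZFPM1 144 in replicate 1. At a log2 fold of at least 4 these were 32, 3, 19 and 12, and 0 reproducible peaks were left. With a recovered input of at least 5 reads, added after seeing the data, they were 22, 3, 15 and 7. With a denominator of at least 2 in lowest terms the 9 genes had 80 and 3. With no minimum for p, also added, replicate 2 had 11. Without CBFA2T3 and ZFPM1 replicate 1 had 3. Leaving out clusters that lie in another gene's span on either strand left 45 in CBFA2T3 and 0 reproducible peaks. Touching reproducible peaks merged into 1. The overlapped share of replicate 1, 33.6%, was 18.4% when at least 50% of the cluster had to be covered, 3.29% for enriched clusters of replicate 2, and 50% at a log2 fold of at least 4. The enriched share between GSE1 and CBFA2T3, 14.1%, was 4.12% without GSE1, CBFA2T3 and ZFPM1 and 3.24% at a log2 fold of at least 4. A denominator of at least 2 took the median paired difference from −1.08 to −1.17, and one of at least 5 to −1.07. It rested on CBFA2T3 and ZFPM1: without them it was −0.04, with 19 of 37 pairs higher in replicate 1. No paired analysis was possible because each deposited fold already sets IP against input and no result comes from a test across samples. In replicate 2, 34 of 83 recovered clusters of ZFPM1 had the reads for a call at a log2 fold between 3 and 4.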
